A study of Mus musculus with 8 samples.

Results

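The genes described here are 33 genes of glycolysis and of the response to low oxygen, listed by symbol, and followed in whole ear skin of mice treated with MC903. They comprise 4 transporters of glucose and lactate, 19 enzymes of glycolysis and its control, 7 genes of the hypoxia response and 3 isoforms typical of skeletal muscle (Pfkm, Eno3 and Pgam2), which were kept apart. All 33 were found among the 41388 gene identifiers of the tables, and all 33 passed the filter on low counts. The 8 libraries came from whole ears of adult wild-type C57Bl/6 mice, with 4 mice and 4 libraries per group. Vehicle mice received topical ethanol. MC903 mice received 1 nmol of calcipotriol, a vitamin D analog also called MC903, daily for 12 days, which is used to produce an itchy, atopic dermatitis-like inflammation.

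Glycolysis splits glucose into pyruvate in the cytosol, and lactate dehydrogenase turns pyruvate into lactate when it is not passed to mitochondria. Glucose enters cells through facilitative transporters of the Slc2a family, and lactate crosses the membrane through Slc16a transporters. In low oxygen the transcription factor subunit HIF-1 alpha escapes hydroxylation by the Egln enzymes, pairs with Arnt and binds hypoxia response elements near many glycolytic genes. In skin, keratinocytes rely strongly on glycolysis, and wounding and inflammation are known settings of increased glucose use.

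Library totals ran from 12310466 to 16837221 counts, so that 3 counts, taken as the detection floor, were 0.17 to 0.25 CPM after TMM scaling. CPM is the count scaled to a common library size, here adjusted by TMM factors, and RPKM is that value per kilobase of gene length. Cyp24a1, a direct vitamin D receptor target used as the treatment check, rose 204-fold (adjusted p = 1.76e-08). Keratinocyte markers, all 8 detected, summed to 6689 to 7637 CPM in vehicle and 12806 to 14246 CPM in MC903 libraries. The sum does not stand for each marker, since the median log2 fold change of the 8, MC903 against vehicle, was 0.03. The samples were whole ear, and fewer cells of a type and less RNA per cell cannot be told apart. Vehicle replicate 2 stood apart through salivary gland transcripts: 1 of them, Bpifa2, took 24.5% of its counts, against 0.0132% to 0.0400% in the other libraries. Skeletal muscle markers also varied widely, from 5124 to 15462 CPM in vehicle and from 3093 to 10012 CPM in MC903 libraries, and none of the 16 was at 0.

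Most of the 33 listed genes were higher in MC903-treated ears, but the list was chosen with earlier results of these data known. The counts therefore describe these 33 genes and not the pathways as a whole. Genes of the same pathways outside the list, given further below, were mixed. In edgeR's quasi-likelihood test, with Benjamini-Hochberg adjustment over all 16105 genes tested and a threshold of 0.05, 21 of the 33 were higher and 3 lower, and 9 did not pass. Over all genes tested, 41.5% passed, 21.3% higher and 20.2% lower. The median log2 fold change was 0.72 over the 33 genes and -0.03 over all genes. All 4 transporters rose, as did 6 of 11 genes of the upper part of glycolysis, 6 of 8 of the lower part and 5 of 7 hypoxia-response genes. The 3 that fell were Ldhb, Adm and the muscle isoform Pfkm. For 19 members all 4 MC903 values lay above all 4 vehicle values (19.8% of all genes), and for 3 they lay below (18.9%). Without vehicle replicate 2, 20 members were higher and 2 lower.

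**Figure D1:**
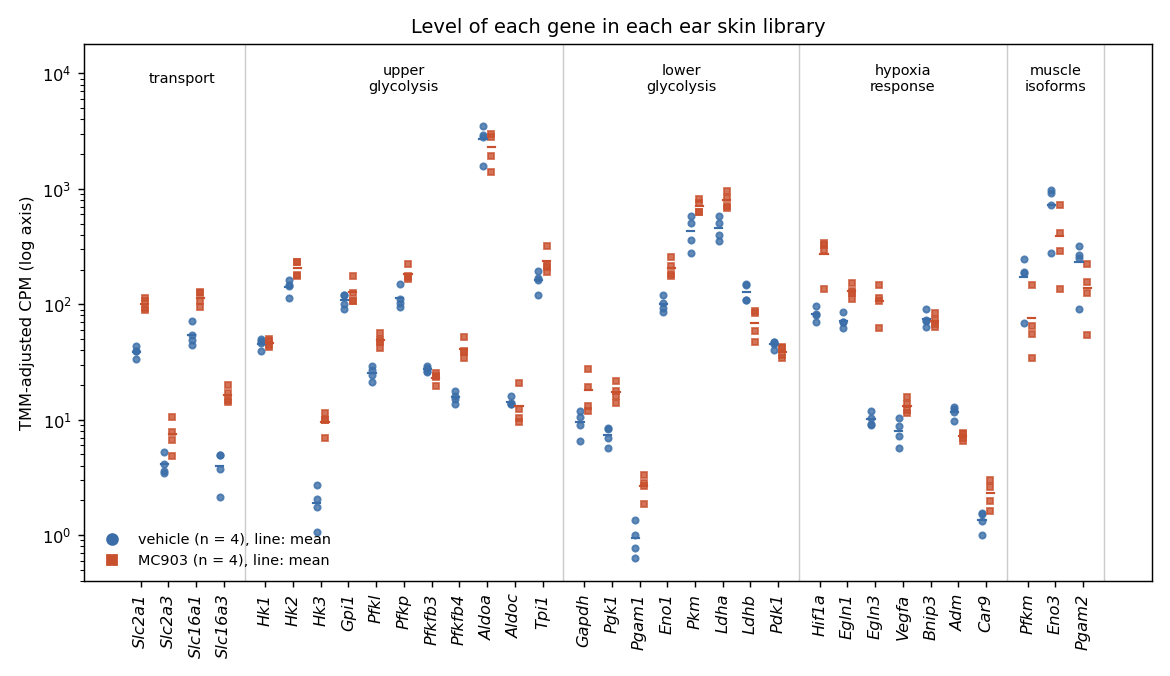
TMM-adjusted CPM on a log axis for each of the 33 genes in 4 vehicle (circles) and 4 MC903 (squares) libraries, with a line at each group mean. Egln3, Slc2a1, Slc16a3 and Hk3 show groups that lie far apart, whereas the 3 muscle isoforms and Aldoa spread widely within both groups.

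**Figure D2:**
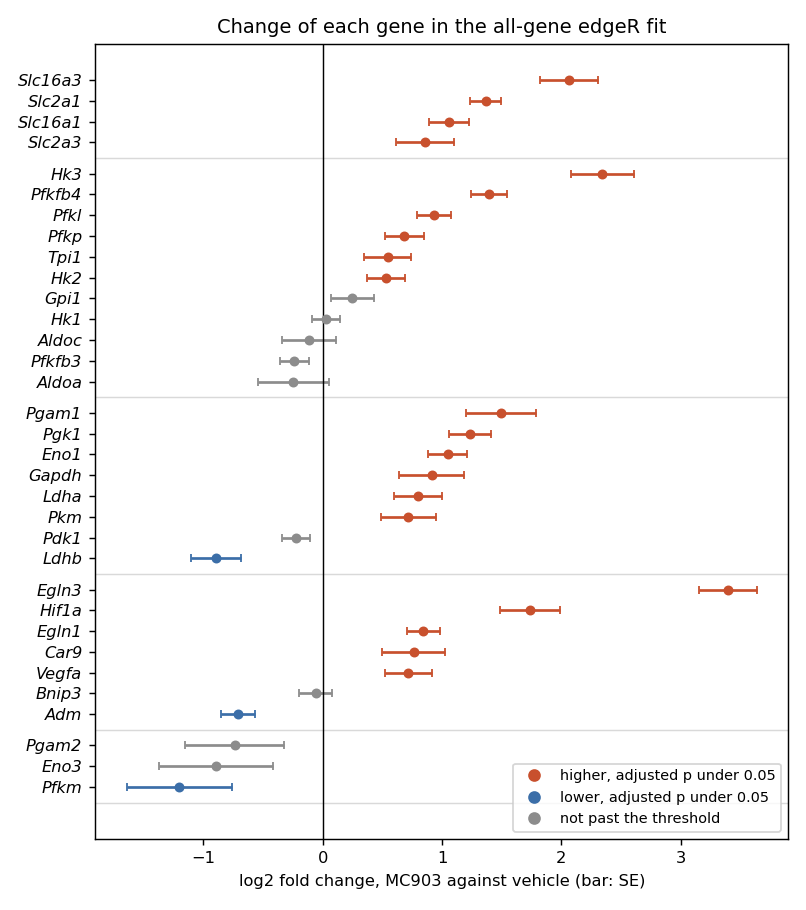
Log2 fold change of each gene, MC903 against vehicle, from the all-gene edgeR fit, with the standard error as a bar and colours for the 21 genes called higher, the 3 called lower and the 9 not past the threshold. Egln3 stands at 3.40, and Ldhb and Ldha lie on opposite sides of 0.

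The promoters of 5 members are shown because these genes carry the largest response (Egln3), glucose entry (Slc2a1), a glycolytic step (Pgk1) and the 2 lactate dehydrogenase subunits, which moved in opposite directions. RefSeq's GRCm38.p6 table held promoter windows for 32 of the 33 members, and Slc2a3 had none. The 250 bases before each start site were searched on both strands for ACGTG, 1 form of the hypoxia response element's core. The palindrome CACGTG (an E-box) counts as 2 overlapping matches. The other form of the core, GCGTG, was not searched, and the Ldhb window below holds it. A count of 0 matches therefore does not mean that the core is absent. Each sequence below reads 5′ to 3′ on the gene's strand, with the matches in capitals. Egln3 (chr12:54203875-54204124, minus strand) has 1 match, Slc2a1 (chr4:119108495-119108744, plus strand) 1, Pgk1 (chrX:106186850-106187099, plus strand) 2, Ldha (chr7:46845554-46845803, plus strand) 5 and Ldhb (chr6:142507958-142508207, minus strand) 0. Ldha has another window in the table (chr7:46846832-46847081), not shown, with 0 matches, while the other 4 genes have 1 window each.
Egln3: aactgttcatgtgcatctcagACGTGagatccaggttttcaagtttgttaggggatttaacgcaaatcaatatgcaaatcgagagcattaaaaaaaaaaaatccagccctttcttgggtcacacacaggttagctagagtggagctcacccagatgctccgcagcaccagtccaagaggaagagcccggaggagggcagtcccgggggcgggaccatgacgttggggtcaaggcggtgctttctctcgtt
Slc2a1: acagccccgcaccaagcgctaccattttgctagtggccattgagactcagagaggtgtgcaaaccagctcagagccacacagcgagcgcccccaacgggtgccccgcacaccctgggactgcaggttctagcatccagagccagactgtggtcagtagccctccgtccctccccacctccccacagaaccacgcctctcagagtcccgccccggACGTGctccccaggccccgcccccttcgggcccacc
Pgk1: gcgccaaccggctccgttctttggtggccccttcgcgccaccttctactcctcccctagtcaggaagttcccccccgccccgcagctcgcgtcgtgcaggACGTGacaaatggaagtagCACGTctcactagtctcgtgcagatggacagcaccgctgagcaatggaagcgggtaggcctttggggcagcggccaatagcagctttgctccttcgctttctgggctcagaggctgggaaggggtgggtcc
Ldha: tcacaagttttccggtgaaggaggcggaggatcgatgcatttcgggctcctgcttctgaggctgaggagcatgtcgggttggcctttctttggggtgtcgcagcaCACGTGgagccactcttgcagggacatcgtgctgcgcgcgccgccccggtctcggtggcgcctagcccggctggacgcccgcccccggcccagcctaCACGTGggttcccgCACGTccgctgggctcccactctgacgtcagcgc
Ldhb: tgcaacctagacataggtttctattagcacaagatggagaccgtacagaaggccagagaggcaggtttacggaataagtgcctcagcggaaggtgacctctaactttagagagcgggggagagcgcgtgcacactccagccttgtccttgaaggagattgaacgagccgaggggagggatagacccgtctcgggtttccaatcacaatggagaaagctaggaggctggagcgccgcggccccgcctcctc

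The match lay 229 bases before the start site in Egln3, 36 in Slc2a1, and 150 and 131 in Pgk1. In the Ldha window shown the matches began 145, 144, 48, 47 and 34 bases before it, and include 2 copies of the palindrome. Of all 32851 windows of the same length in the table, 16.6% held at least 1 match and 0.134% held 5 or more. The cut of 5 was taken from the Ldha window, which held the most matches of the 46 member windows. At least 1 window held a match in 18 of the 32 members (56.2%), in 18.5% of all genes in the table and in 23.7% of those tested for expression. Matches occurred in 14 of the 20 members that rose, 1 of the 3 that fell and 3 of the 9 that did not pass. Many members are textbook hypoxia targets, and the part of that choice in the share was not tested. A match of these letters is not in itself a binding site.

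Among the hypoxia-response genes, Egln3 changed most. Egln3 (ENSMUSG00000035105) encodes the prolyl hydroxylase PHD3, an oxygen sensor that marks HIF alpha subunits for destruction and is itself hypoxia-inducible, and lies on chromosome 12 from 54178981 to 54203860 (mm10, as are all gene positions given). Its level was 11.96, 8.99, 10.3 and 9.18 CPM in vehicle replicates 1 to 4 and 113, 146, 106 and 61.9 CPM in MC903 replicates 1 to 4. The lowest MC903 library was replicate 4, and it still stood well above every vehicle library. The fitted change was 10.5-fold (log2 3.40 ± 0.24, SE; adjusted p = 2.31e-06), and the log2 value stayed between 3.06 and 3.59 over 17 alternative fits.

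Hif1a, the oxygen-regulated subunit of the factor itself (chromosome 12 from 73901375 to 73947530), stood at 82.5, 69.9, 80.3 and 95.8 CPM in vehicle and 136, 325, 293 and 342 CPM in MC903 libraries. The groups did not overlap, but MC903 replicate 1 was far closer to vehicle than the other 3. Its log2 fold change was 1.74 ± 0.25 (adjusted p = 2.91e-04) and 1.97 without that library. An antisense gene, Gm15283, overlaps 5.60% of its exonic bases, and no strand setting was given. Egln1, which encodes the main prolyl hydroxylase PHD2, rose from 85.4, 62.5, 70.04 and 70.8 to 152, 131, 126 and 110.4 CPM (log2 0.84 ± 0.14, adjusted p = 6.63e-04). Per length, Egln3 was at 3.80 ± 0.511 RPKM against 20.5 ± 2.72 RPKM for Egln1 in vehicle skin (mean ± SD, n = 4). In MC903 skin it was at 40.1 ± 12.9 against 36.9 ± 4.87 RPKM, a difference smaller than the spread of Egln3.

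Of the secreted and surface products of the hypoxia response, Vegfa, the angiogenic growth factor, was at 10.3, 8.84, 5.71 and 7.25 CPM in vehicle and 11.4, 13.7, 12.1 and 15.7 CPM in MC903 libraries. Its groups stood apart by little, and it was higher (log2 0.72 ± 0.19, adjusted p = 0.0119). Adm, the vasodilator peptide adrenomedullin and also a hypoxia-inducible gene, moved the other way, from 11.7, 9.76, 12.4 and 12.9 to 7.62, 6.92, 6.56 and 7.55 CPM. All 4 MC903 values lay below all 4 vehicle values, and Adm fell by 0.71 on the log2 scale (SE 0.14, adjusted p = 0.00248). Car9, a surface carbonic anhydrase often used as a hypoxia marker, was scarce, at 1.53, 0.999, 1.54 and 1.31 CPM in vehicle and 2.63, 2.999, 1.99 and 1.62 CPM in MC903 libraries, on 87 and 125 counts in all. It was higher (log2 0.76 ± 0.26, adjusted p = 0.0364), but did not pass when any 1 library other than MC903 replicate 4 was left out, nor in 5 further fits, with adjusted p up to 0.293. Bnip3, a mitophagy receptor and HIF target, did not pass, with 75.01 ± 11.6 CPM without and 72.03 ± 9.24 CPM with MC903 (mean ± SD, n = 4; adjusted p = 0.761).

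All 4 carriers of glucose and lactate were higher. Slc2a1 (GLUT1, the main glucose transporter of epidermis; chromosome 4 from 119108711 to 119137330) was at 39.5, 33.4, 39.7 and 43.1 CPM in vehicle and 106, 113, 93.4 and 88.8 CPM in MC903 libraries. Every MC903 library was far above the highest vehicle library, a 2.58-fold change (log2 1.37 ± 0.13, adjusted p = 1.40e-05). Slc2a3 (GLUT3, a high-affinity transporter of neurons and leukocytes) was scarce, at 3.59, 4.15, 5.26 and 3.44 CPM in vehicle and 10.5, 7.83, 6.63 and 4.87 CPM in MC903 libraries. Its groups overlapped through MC903 replicate 4, and it was higher (log2 0.86 ± 0.24, adjusted p = 0.0154).

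The lactate exporter Slc16a3 (MCT4) was at 4.95, 4.92, 3.77 and 2.12 CPM in vehicle and 19.9, 17.2, 14.7 and 14.1 CPM in MC903 libraries, a 4.19-fold rise (log2 2.07 ± 0.24, adjusted p = 6.42e-05). Slc16a1 (MCT1, which carries lactate in either direction) was at 54.3, 43.95, 49.1 and 70.96 CPM and 93.98, 128, 107 and 125 CPM, a 2.08-fold rise (log2 1.06 ± 0.17, adjusted p = 4.91e-04). Neither gene's groups overlapped. Slc16a1 was the more abundant per length, at 25.6 ± 3.65 RPKM in MC903 skin against 3.10 ± 0.496 RPKM for Slc16a3.

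In the upper part of glycolysis the changes differed between family members. Of the hexokinases, which trap glucose as glucose 6-phosphate, Hk3 rose most, from 1.77, 2.69, 2.06 and 1.06 CPM to 11.4, 9.998, 9.87 and 6.98 CPM. This form is typical of myeloid cells, and its MC903 values lay above every vehicle value (log2 2.34 ± 0.26, adjusted p = 4.79e-05). Macrophage markers summed to 382 to 501 CPM in vehicle and 1142 to 1689 CPM in MC903 libraries, with all 8 called higher. Neutrophil markers summed to 11.4 to 12.9 and 70.3 to 91.3 CPM, with 4 of 8 tested and all 4 higher. The part of these cells in the changes of Hk3 and Slc2a3 was not tested. Hk2, an inducible form and the most abundant hexokinase here, was at 147, 145, 162 and 113 CPM and 231, 180.2, 175 and 231 CPM (log2 0.53 ± 0.16, adjusted p = 0.0186). It no longer passed when vehicle replicate 4 was left out (adjusted p = 0.0570) or when library sizes alone set the scale (0.118). The widely expressed Hk1 did not pass, with 45.5 ± 4.63 CPM without and 46.4 ± 3.31 CPM with MC903 (mean ± SD, n = 4; adjusted p = 0.864).

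Phosphofructokinase commits sugar to glycolysis, and the liver-type gene Pfkl rose from 21.2, 29.4, 26.96 and 24.5 CPM to 56.8, 41.9, 46.8 and 49.1 CPM (log2 0.93 ± 0.14, adjusted p = 3.60e-04). The platelet-type gene Pfkp rose from 95.6, 110.5, 149 and 102 CPM to 175, 166, 171 and 223 CPM (log2 0.68 ± 0.17, adjusted p = 0.00680). Both had groups that did not overlap. The bifunctional enzymes that set fructose 2,6-bisphosphate, the activator of phosphofructokinase, differed from each other. Pfkfb4 rose 2.63-fold, from 16.1, 17.8, 14.97 and 13.7 CPM to 52.1, 34.4, 39.2 and 38.6 CPM (log2 1.39 ± 0.15, adjusted p = 4.05e-05). Pfkfb3, with 26.3, 29.05, 28.2 and 25.8 CPM in vehicle and 23.6, 25.5, 19.6 and 23.9 CPM in MC903 libraries, had all MC903 values below all vehicle values by a small margin and did not pass (log2 -0.24 ± 0.12, adjusted p = 0.135).

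Tpi1, triose phosphate isomerase, was higher (log2 0.54 ± 0.19, adjusted p = 0.0428), but the groups overlapped at 169, 193, 163 and 119 CPM against 318, 192, 219 and 209.9 CPM. In 7 of 16 alternative fits it did not pass: upper quartile factors, library sizes alone, and leaving out vehicle replicate 1, 3 or 4 or MC903 replicate 1 or 3, with adjusted p up to 0.112. Gpi1 (glucose 6-phosphate isomerase, log2 0.25 ± 0.18, adjusted p = 0.294) and Aldoc (the brain-type aldolase, -0.12 ± 0.22, adjusted p = 0.706) did not pass. Aldoc passed as lower without MC903 replicate 1 (log2 -0.42, adjusted p = 0.0322).

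In the lower part of glycolysis, Eno1, the main enolase outside muscle and brain, was at 84.8, 121, 103 and 93.7 CPM in vehicle and 259, 175, 182 and 215 CPM in MC903 libraries. It rose 2.07-fold (log2 1.05 ± 0.16, adjusted p = 4.59e-04), with no overlap. Pgk1 (phosphoglycerate kinase) rose from 8.54, 6.92, 8.34 and 5.68 CPM to 21.5, 17.7, 16.2 and 14.04 CPM (log2 1.23 ± 0.18, adjusted p = 2.83e-04). Pgam1 (phosphoglycerate mutase, brain type) rose from 0.938 ± 0.317 to 2.67 ± 0.609 CPM (2.82-fold, adjusted p = 0.00191), on 60 and 145 counts in all. Pkm (pyruvate kinase) was at 364, 505, 577 and 277 CPM in vehicle and 749, 628, 632 and 819.7 CPM in MC903 libraries (log2 0.72 ± 0.23, adjusted p = 0.0279). It did not pass when vehicle replicate 1 (adjusted p = 0.0773), vehicle replicate 4 (0.0663) or MC903 replicate 4 (0.0577) was left out. Gapdh, often used as a reference gene, was at 10.5, 8.99, 11.8 and 6.56 CPM against 11.9, 27.7, 13.1 and 19.1 CPM and was higher (log2 0.91 ± 0.27, adjusted p = 0.0189), though not without MC903 replicate 2, its highest library (adjusted p = 0.0543). Pdk1, which shuts pyruvate out of the mitochondrial dehydrogenase, did not pass (log2 -0.23 ± 0.12, adjusted p = 0.146).

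Several of these enzymes share sequence with annotated copies elsewhere in the genome, and how multiply mapped reads were handled was not given. Of the distinct 50-base words (the read length) in a gene's GENCODE M21 transcripts, other genes' transcripts held 53.9% for Pgk1, 47.2% for Bnip3, 36.2% for Pgam1, 25.99% for Eno1, 25.8% for Pkm, 25.1% for Gapdh and 20.99% for Ldhb. In vehicle skin Pgk1 was at 3.28 ± 0.596 RPKM, Gapdh at 3.69 ± 0.880 and Pgam1 at 0.512 ± 0.173, whereas Tpi1, with 4.18% shared, was at 72.9 ± 13.8 RPKM. The levels of Pgk1, Bnip3, Pgam1, Eno1, Pkm, Gapdh and Ldhb are uncertain, and the part of shared sequence in their changes was not tested. Egln3, Egln1, Slc16a1, Slc16a3, Hk2, Hk3, Pfkfb4 and Adm shared 0% of their words. The largest overlaps with another gene's exons were 16.5% of exonic bases for Gpi1 (Gm26762) and 9.29% for Car9 (Gm12454). The part of such overlap in their levels was not tested.

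The lactate dehydrogenase subunits moved in opposite directions. Ldha, the subunit that favours lactate production, was at 397, 578, 502 and 351 CPM in vehicle and 962, 687, 704 and 833 CPM in MC903 libraries, a 1.74-fold rise (log2 0.80 ± 0.20, adjusted p = 0.00825). Ldhb, the subunit that predominates in heart and favours the return to pyruvate, went from 108, 149.5, 148 and 109.7 CPM to 84.5, 47.1, 58.5 and 87.1 CPM and fell by 0.90 on the log2 scale (SE 0.21, adjusted p = 0.00529). Neither pair of groups overlapped. With muscle marker level as a term Ldhb no longer passed. Per length, Ldha made up 65.9, 67.05, 64.1 and 62.8% of the summed Ldha and Ldhb level in vehicle replicates 1 to 4 and 85.7, 88.5, 86.4 and 83.4% in MC903 replicates 1 to 4. All 4 MC903 shares lay above all 4 vehicle shares, and replicate 4, whose muscle marker level was the lowest of the vehicle and the highest of the MC903 libraries, had the lowest share of each group. The part of muscle in this shift was not tested. The log2 ratio of Ldhb to Ldha counts was -1.82 ± 0.12 in vehicle and -3.55 ± 0.25 in MC903 skin (mean ± SD, n = 4), a difference of -1.74 (two-sided exact permutation test, p = 0.0286; adjusted over 12 pairs, 0.0686).

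**Figure D3:**
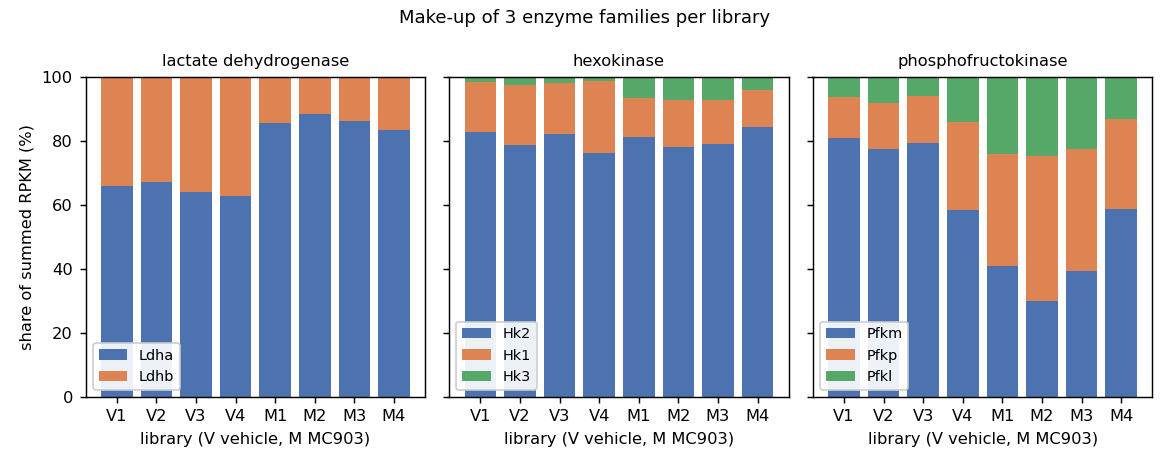
Stacked bars of the share of each isoform in its family's summed RPKM, in percent, for 4 vehicle (V1 to V4) and 4 MC903 (M1 to M4) libraries. Ldha rises from at most 67.05% to at least 83.4%, Hk2 stays between 76.2% and 84.5% while the small Hk3 part grows, and Pfkm holds 58.6% in V4 and 58.8% in M4.

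In 12 isoform pairs the ratio within a library, which does not depend on the scaling between libraries, was compared between groups. With 4 against 4 libraries the smallest p of the exact permutation test is 0.0286, and no pair passed 0.05 after adjustment over the 12. A pair could pass only if most of the 12 reached that smallest p together. Failure to pass therefore says little about any single pair. Groups did not overlap, at that smallest p and an adjusted p of 0.0686, for 5 pairs. These were Ldhb to Ldha and 4 whose log2 ratio was higher in MC903 skin, Egln3 to Egln1 by 2.50, Hk3 to Hk1 by 2.34, Pfkfb4 to Pfkfb3 by 1.62 and Slc16a3 to Slc16a1 by 1.05. For the last pair the groups stood apart by very little. Slc16a3 held 8.52% of the pair per length in vehicle replicate 2 and 8.57% in MC903 replicate 4. The ratio of Pfkp to Pfkl differed by -0.24 (exact p = 0.229; adjusted, 0.249) and that of Hk2 to Hk1 by 0.50 (exact p = 0.0571; adjusted, 0.0762). Hk2 held 82.9, 78.8, 82.1 and 76.2% of the summed hexokinase RPKM in vehicle and 81.2, 78.2, 79.1 and 84.5% in MC903 libraries, and Hk3 held 1.62, 2.37, 1.69 and 1.17% and 6.49, 7.04, 7.26 and 4.14%.

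The muscle isoforms varied widely within each group. Pfkm, muscle phosphofructokinase, was at 190.2, 187, 249 and 68.8 CPM in vehicle replicates 1 to 4 and 64.9, 34.5, 55.5 and 147 CPM in MC903 replicates 1 to 4. Eno3, muscle enolase, was at 728, 980.5, 921 and 277 CPM and 412, 135, 287 and 731 CPM, and Pgam2, muscle phosphoglycerate mutase, at 267, 318, 253 and 90.4 CPM and 156, 54.6, 124 and 222 CPM. In each of the 3 genes the lowest vehicle library was replicate 4 and the highest MC903 library was replicate 4, so that the groups overlapped. The 16 skeletal muscle markers, summed, had the same 2 libraries in those places, at 15462, 14835, 13323 and 5124 CPM in vehicle and 5959, 3093, 5493 and 10012 CPM in MC903 replicates 1 to 4.

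Pfkm passed narrowly as lower (log2 -1.20 ± 0.44, adjusted p = 0.0471), while Eno3 (-0.89 ± 0.48, adjusted p = 0.155) and Pgam2 (-0.74 ± 0.42, adjusted p = 0.175) did not pass. Of the muscle markers, 5 of 16 were lower and none higher. That count was 14 without vehicle replicate 4, 12 without MC903 replicate 4, and 0 or 1 without any other library. Pfkm did not pass with any 1 of replicates 1, 2 and 3 of either group left out, with DESeq2 or with the replicate number as a block, where adjusted p ran from 0.0610 to 0.128. Without vehicle replicate 4 Pgam2 passed as lower (adjusted p = 0.0413), and without MC903 replicate 4 Eno3 did (adjusted p = 0.0311).

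Aldoa, the aldolase of muscle and most other tissues, was the most abundant member per length (983 ± 295 RPKM in vehicle skin) and, like the muscle isoforms, was lowest in replicate 4 within the vehicle group. Its level was 2919, 3508, 2828 and 1577 CPM in vehicle and 2833, 1409, 1932 and 2959 CPM in MC903 libraries, and it did not pass (log2 -0.25 ± 0.29, adjusted p = 0.527). MC903 replicate 1 was nearly as high as replicate 4, while its muscle markers summed to 5959 against 10012 CPM.

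**Figure D4:**
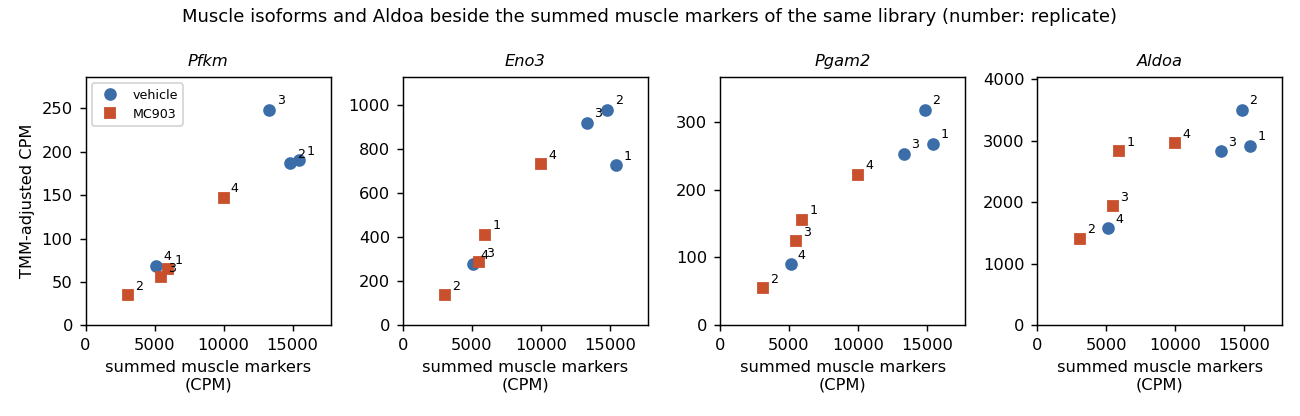
TMM-adjusted CPM of Pfkm, Eno3, Pgam2 and Aldoa in each library against the summed CPM of 16 skeletal muscle markers (x axis, CPM), with vehicle as circles, MC903 as squares and the replicate number beside each point. For Pfkm, vehicle replicate 4 (68.8 CPM) lies close to MC903 replicates 1 to 3, and MC903 replicate 4 (147 CPM) lies between these and vehicle replicates 1 to 3.

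A further fit, chosen after seeing the data, took the log2 summed muscle marker level of each library as a term beside the treatment. The marker sum averaged 12186 CPM in vehicle and 6139 CPM in MC903 libraries, so the term shares part of the group difference. For muscle genes a smaller change in such a fit was therefore likely beforehand. In that fit the log2 fold change of Pfkm was -0.17 (adjusted p = 0.604), that of Eno3 0.23 (0.511), that of Pgam2 0.36 (0.178) and that of Aldoa 0.40 (0.264), so that the last 3 changed sign without passing in either fit. The members called higher without the term went both ways. The values of Ldha (1.06), Pkm (1.10), Hk2 (0.78) and Tpi1 (0.82) were larger than without the term. So were those of Slc16a3, Hk3, Pfkl, Pfkp, Pfkfb4, Pgk1, Eno1 and Vegfa. The values of Slc2a1, Slc2a3, Slc16a1, Gapdh, Pgam1, Hif1a, Egln1, Egln3 and Car9 were smaller than without it. Ldhb fell by 0.59 and no longer passed (adjusted p = 0.0575), nor did Slc2a3 (0.109), Gapdh (0.101) or Car9 (0.293). Of the 24 members called, 19 kept their call and direction, and over all genes 4082 were called with the term against 6682 without it.

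The other listed genes of these pathways were mixed. Of 9 other sugar transporters tested, 3 were higher and 5 lower (median log2 -0.64). Slc2a12 (GLUT12) fell from 29.1 ± 1.88 to 10.8 ± 1.13 CPM (log2 -1.43 ± 0.13, adjusted p = 9.45e-06), and Slc2a5, the fructose transporter GLUT5, changed by -1.56 ± 0.15 (adjusted p = 1.90e-05). Slc2a10 also fell (-0.94 ± 0.19), whereas Slc2a6, a transporter of leukocytes, rose (1.65 ± 0.25, adjusted p = 3.65e-04). Only 3 were lower without vehicle replicate 3.

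Among 22 other glycolytic and pyruvate-handling genes tested, 2 were higher and 6 lower (median -0.29). Pfkfb2, another form of the bifunctional enzyme (-0.93 ± 0.15, adjusted p = 5.06e-04), Pdk2, a pyruvate dehydrogenase kinase (-1.34 ± 0.26, adjusted p = 0.00166), and Bpgm, which makes 2,3-bisphosphoglycerate (-0.72 ± 0.15, adjusted p = 0.00279), fell. Fbp1, which reverses the phosphofructokinase step, rose (1.68 ± 0.34, adjusted p = 0.00238). Only 1 was higher with library sizes alone or with the muscle term. In the pentose phosphate pathway 3 of 7 were higher and none lower (median 0.36). They were the 3 enzymes of its oxidative branch, G6pdx (0.51 ± 0.14), Pgls (0.91 ± 0.17) and Pgd (0.48 ± 0.17), and only 1 of them passed with library sizes alone. Rpe of the non-oxidative branch did not pass (0.36 ± 0.22, adjusted p = 0.211).

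No citric acid cycle gene of 16 passed with edgeR (median -0.09), and 3 had an unadjusted p under 0.05; DESeq2 and limma-voom also called 0. Values not past the threshold included those of the succinate dehydrogenase subunits Sdha (-0.57 ± 0.24, adjusted p = 0.0787) and Sdhd (0.32 ± 0.16, adjusted p = 0.124) and the 2-oxoglutarate dehydrogenase gene Ogdh (-0.35 ± 0.15, adjusted p = 0.0813). Without vehicle replicate 4, without MC903 replicate 4 or with upper quartile factors, 3 were called lower. Of 7 glycogen genes tested, 2 were lower (median -0.53), the brain-type phosphorylase Pygb (-0.95 ± 0.17, adjusted p = 0.00109) and the glycogen synthase Gys1 (-0.69 ± 0.26, adjusted p = 0.0489). Muscle phosphorylase Pygm (-1.23 ± 0.49) and the branching enzyme Gbe1 (-0.51 ± 0.21) did not pass. The count of lower genes was 5 if vehicle replicate 4 or MC903 replicate 4 was left out or upper quartile factors were used. It was 1 if vehicle replicate 2 or 3, or MC903 replicate 1, 2 or 3, was left out, and with RLE factors, the block or the muscle term.

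Hypoxia genes outside the members were mixed as well: of 31 tested, 7 were higher and 5 lower (median 0.14), and 3 were lower with the muscle term. Fam162a, a hypoxia-inducible mitochondrial protein, rose from 44.3 ± 0.860 to 386 ± 95.2 CPM (log2 3.12 ± 0.20, adjusted p = 1.04e-06), and the carbonic anhydrase Car12 from 38.7 ± 8.15 to 122 ± 14.1 CPM (1.66 ± 0.16, adjusted p = 1.96e-05). Higd1a, another hypoxia-induced mitochondrial protein, also rose (0.90 ± 0.16, adjusted p = 9.03e-04). Arnt2, an alternative partner of HIF alpha subunits, fell (-1.18 ± 0.20, adjusted p = 8.58e-04) from a low level. Some regulators, named here after their values were seen, were the alpha subunit Epas1 (HIF-2 alpha; 0.69 ± 0.20, adjusted p = 0.0179), the asparagine hydroxylase Hif1an (-0.57 ± 0.15, adjusted p = 0.0121) and the common partner Arnt (-0.07 ± 0.15, adjusted p = 0.721). The classical targets Ndrg1 (0.30 ± 0.17, adjusted p = 0.188), P4ha1 (0.01 ± 0.15, adjusted p = 0.964) and Ddit4 (-0.34 ± 0.19, adjusted p = 0.178), also picked afterwards, did not pass.

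**Figure D5:**
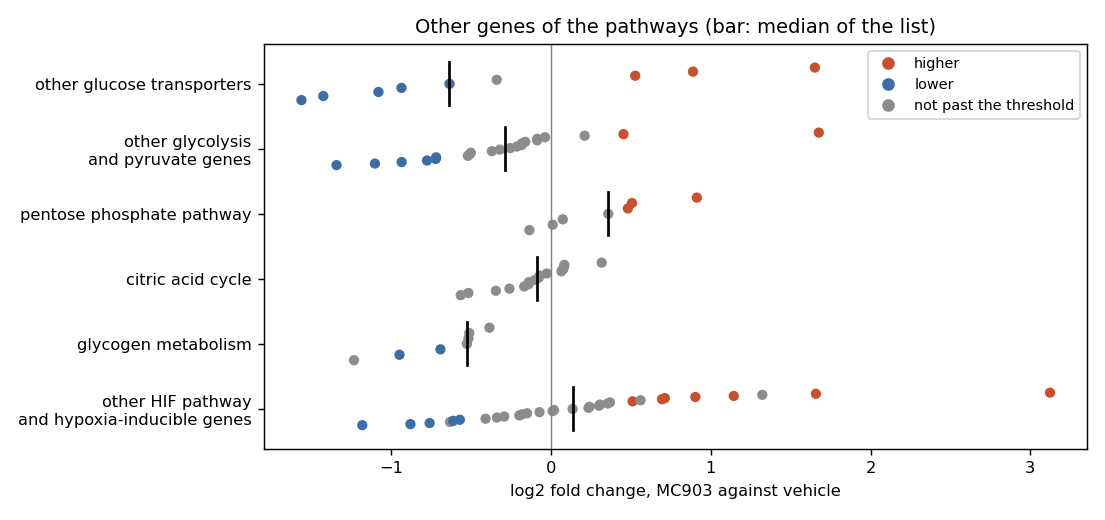
Log2 fold change, MC903 against vehicle, of the genes tested in 6 further lists, 1 point per gene coloured by its call, with a bar at each list's median. No citric acid cycle gene is coloured as called, and the hypoxia list spans Arnt2 at -1.18 to Fam162a at 3.12.

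Proliferation genes stood beside these changes: all 6 listed were higher, and their summed level was 146 to 201 CPM in vehicle and 386 to 516 CPM in MC903 libraries. Of 8 keratinocyte markers 3 were higher and 1 lower, of 6 endothelial markers 1 was higher, and of 6 adipocyte markers 4 were lower. All 5 cartilage markers tested, of 6 listed, were lower, and the 6 summed to 258 to 305 CPM in vehicle and 97.9 to 133 CPM in MC903 libraries. The lower keratinocyte call and the endothelial call were lost in 7 and 11 of 17 alternative fits, and the adipocyte count ran from 2 (leaving out vehicle replicate 2, or replicate 2 or 3 of the treated group) to 6 (leaving out MC903 replicate 4). Red blood cell genes, a rough gauge of retained blood, did not pass in any of 5 cases with edgeR (1 with an unadjusted p under 0.05; DESeq2 and limma-voom called 0), and vehicle replicate 2 held more of them than any other library (313 CPM). The part of these cell types in the members' changes was not tested.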

How the data were processed

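Whole-ear RNA of 8 mice, 4 given vehicle and 4 given MC903, was sequenced with single reads of 50 bases after removal of ribosomal RNA, per the labels' protocols. The authors deposited whole-number counts per Ensembl gene with CPM and RPKM made from them, per the file headers, and STAR 2.0.4b, Subread and featureCounts 1.4.5 on mm10 are named in the submitters' processing notes. The deposited CPM and RPKM were recomputed from the counts and matched within 2.33e-10. Of 41388 identifiers, 40254 were given symbols by Ensembl ID, and gene positions are those of the deposited tables. The annotation release, strand setting and handling of multiply mapped reads are not given in the sources used here. Protein sequences were not used here.

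Counts were filtered (filterByExpr), scaled (TMM) and tested over 16105 genes with edgeR 4.0.16 in R 4.3.3 by quasi-likelihood F-test, with the group as the only term and Benjamini-Hochberg adjustment. The fit was tested on simulated data. Standard errors are the size of the log2 fold change divided by the square root of F. Alternatives used RLE, upper quartile or no factors, no filter or a stricter one, DESeq2 1.42.0, limma-voom (limma 3.58.1), a replicate block, each library left out, and a muscle marker term chosen after seeing the data. Isoform ratios used exact permutation tests (0.5 counts added, or 2 as an alternative; Python 3.11.15). The floor of 3 counts covers counting error only, since PCR copies are not independent molecules. Libraries of a group differed by more than sampling noise (chi-square per degree of freedom 11.05 or more).

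The members and gene lists were chosen with earlier results of these data known. Genes named are all 33 members, Cyp24a1 and the 4 smallest p-values of each other pathway list, with others marked where they stand; 1 gene under this rule is not reported here. Among the list symbols, Ero1a (present as Ero1l) and Smr3b were not matched.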

Additional observations from a re-analysis of the deposited data

Results flagged for a closer look

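In groups of 4 libraries, a value was singled out where its gap to the nearest other value took more of the group's range than Dixon's 95% critical value allows, which chance alone does in about 1 of 20 groups; 66 groups of member values and 20 of summed markers were examined. Among the members this picked Aldoc in vehicle replicate 3, at 15.9 CPM against 13.7 to 13.98 CPM in the other vehicle libraries, a small difference in a tight group. It also picked Pfkp in MC903 replicate 4, at 223 CPM against 166 to 175 CPM; without that library the log2 fold change of Pfkp was 0.58 (edgeR adjusted p = 0.0151). Among the marker sums it picked vehicle replicate 2 in both cases, for salivary gland markers at 48856 CPM against 51.6 to 83.8 CPM and for red blood cell genes at 313 CPM against 98.8 to 110.2 CPM. Without vehicle replicate 2 the calls on Pfkm and Car9 were lost, and the other 22 of the 24 called members kept theirs.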

How the results depend on the processing

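Of the 24 members called, 18 kept call and direction in all 16 alternative fits; the other 6 (Tpi1, Car9, Hk2, Pfkm, Pkm and Gapdh) lost it in at least 1, and 16 kept it with the muscle marker term as well. With one library left out at a time, 17 to 20 members were called higher and 2 to 4 lower, and 5514 to 7072 genes in all. The muscle marker term, chosen after seeing the data, gave 4082 genes called, 2230 higher and 1852 lower, with 18 members higher and 1 lower; the cause was not tested. Upper quartile factors called 19 members higher and library sizes alone 18, and they moved the median gene by -0.07 and -0.08 (log2). The labels do not say that replicate numbers pair the mice. Same-numbered libraries' deviations from their group means correlated at 0.06, -0.14, -0.12 and -0.20, and no library correlated best with its own number. Such correlations cannot exclude a pairing, since differences in tissue make-up also enter them. With the replicate number as a block, 20 members were higher and 2 lower, Pfkm and Car9 losing their call, and 5705 genes were called. Of 12 isoform pairs, none passed under any alternative, but with so few libraries no pair could pass by itself after adjustment. A sign-flip test of 4 same-numbered differences (the block) cannot go below 0.125. Low counts limit Car9 and Pgam1, which had under 150 counts per group. The part of shared sequence in the low count of Pgam1 was not tested.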
